A study of Mus musculus with 12 samples.

Results

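RNA from mouse CD8+ T cells at circadian time (CT) 22 was compared with RNA at CT10, 12 h apart in the cycle. These are 4 of the 12 libraries of the series, 2 at each time and 1 per day of collection, and they were taken by the time given in their labels. The animals were 8-week-old C57BL/6J males in constant darkness, where rhythms run on the internal clock, and the cells came from lymph nodes. CT10 is late subjective day, when mice rest, and CT22 is late subjective night, at the end of the active phase. Polyadenylated RNA was sequenced, and the other 8 libraries, 2 each at CT2, CT6, CT14 and CT18, served to estimate the spread between libraries. Every group shares strain, sex, age, tissue and lighting. Neither the number of mice behind a library nor the way the cells were purified is in the labels, so p-values measure the spread between these samples, which may be partly technical. Counts on genes were 28628059 and 24689964 in the CT10 libraries of day 1 and day 2 and 27360398 and 26335137 in the CT22 libraries. Paired values below are always day 1, then day 2.

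CD8+ T cells are the lymphocytes that kill infected cells, and in a lymph node most of them are resting and circulate between blood and lymph. Their clock is built like that of other cells: CLOCK and BMAL1 drive the Per and Cry repressors and the Nr1d genes, whose products feed back on them, and clock-controlled factors such as DBP and TEF pass the rhythm on. Glucocorticoid hormone, body temperature and feeding also vary over the day in mice and reach lymphocytes from outside. In RNA from a whole sample, fewer cells of a type and less RNA per cell cannot be told apart. The labelled cell type was clear in all 4 libraries: Cd8a, a co-receptor chain, stood at 1529 and 1355 CPM at CT10 against 1346 and 1295 CPM at CT22, and Cd3e, of the T cell receptor complex, at 572 and 544 CPM at CT10 against 559 and 549.9 CPM at CT22.

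The question of the comparison was which transcripts stand at different levels at these opposite phases. No gene passed: 0 of 16396 tested genes were higher (0%) and 0 lower (0%) at an adjusted p under 0.05, in the quasi-likelihood test of edgeR, with p-values adjusted over all tested genes after Benjamini and Hochberg. The smallest adjusted p from edgeR was 0.151. At an unadjusted p under 0.05, 1233 genes stood higher at CT22 (7.52% of all tested) and 901 stood lower (5.5%). Counted another way, both CT22 values lay above both CT10 values for 3777 genes (23%) and below them for 4388 (26.8%), and the median log2 difference over all tested genes was -0.01. The higher genes differed by more, with a median size of 0.73 log2 against 0.31 log2 for the lower genes. DESeq2 called 183 genes higher and 14 lower, and a fit on the 4 libraries alone called 195 and 17. The count also depended on the 2 CT2 libraries, which are no part of the comparison. They differed from each other by a chi-square of 40.2 per degree of freedom, against 3.07 to 10.6 for the other pairs. Without both of them 486 of 16275 tested genes passed as higher and 121 as lower. Of the 197 DESeq2 calls, 190 were among these. The cause of the higher count was not tested. That count in turn was 0 in both directions when CT22 of day 2 was also left out, and 2 higher and 1 lower without CT10 of day 1. In what follows, "passed" always names this fit without CT2, and every other value is from all 12 libraries. Each count of list members that passed is to be read against the 486 and 121 of 16275 genes. The value after ± is a standard error.

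**Figure D1:**
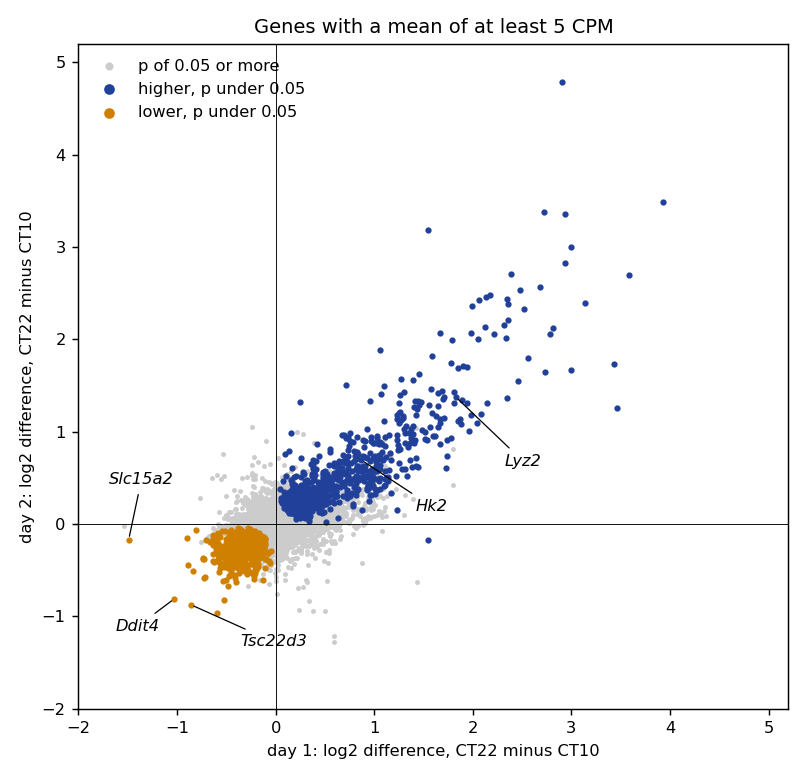
The log2 difference between CT22 and CT10 on day 1 (x axis) and on day 2 (y axis) for the 10153 genes whose mean reached 5 CPM (counts scaled to library size); blue and orange points have an unadjusted p under 0.05 and stand higher or lower at CT22, and 1 gene lies outside the axes. Ddit4 is near -1.03 on day 1 and -0.81 on day 2, while the high end at the upper right holds Lyz2 and other myeloid genes.

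Among genes with a mean of 5 CPM or more, the 3 lowest p-values belonged to genes that were high at CT10. Ddit4, which encodes REDD1, an inhibitor of mTOR signalling that glucocorticoids and stress induce, stood at 113 and 111 CPM at CT10 against 55.5 and 63.3 CPM at CT22. The CT10 libraries were the 2 highest of all 12, with the 8 libraries of other times between 49.1 and 74.7 CPM. The log2 difference was -0.91 ± 0.12 (unadjusted p = 1.2e-05, edgeR), and Ddit4 passed with an adjusted p of 0.00789 by edgeR. Tsc22d3 encodes GILZ, a glucocorticoid-induced leucine zipper protein that restrains inflammation, and it stood at 264 and 228 CPM at CT10 against 145 and 125 CPM at CT22. Both CT10 libraries again exceeded the 10 others, whose highest value was 173 CPM outside CT22, and the log2 difference was -0.87 ± 0.14. Pik3ip1, whose product inhibits PI3 kinase in resting T cells, stood at 174 and 163 CPM at CT10 against 117 and 114 CPM at CT22, a log2 difference of -0.55 ± 0.09. All 3 passed without CT2. Ddit4 lies on chromosome 10 at 59949669 to 59951834 and Tsc22d3 on chromosome X at 140539528 to 140600659 (GRCm38).

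Not every gene known to respond to glucocorticoids went the same way. Of 22 genes in that list, 8 stood lower and 5 higher at an unadjusted p under 0.05, and 11 and 8 had values apart. Over all tested genes the shares were 5.5% and 7.52% by p, and 26.8% and 23% with values apart. The median of the list was -0.09 log2. Beside Ddit4 and Tsc22d3, the chemokine receptor gene Cxcr4 stood at 96.6 and 102 CPM at CT10 against 74 and 73.3 CPM at CT22, a log2 difference of -0.43 ± 0.09. Il7r, the receptor for the survival cytokine interleukin 7, stood at 620.1 and 602 CPM at CT10 against 465 and 494 CPM at CT22, a log2 difference of -0.35 ± 0.10. Txnip, which encodes a brake on glucose uptake, stood at 827 and 744 CPM at CT10 against 624 and 564 CPM at CT22, a log2 difference of -0.40 ± 0.10. These 5 are the members of the list that passed as lower, against 121 of 16275 genes tested without CT2. Per1 and Fkbp5, both classic targets of the hormone receptor, had smaller differences of -0.21 ± 0.09 and -0.18 ± 0.12. Cebpb, a transcription factor gene that is also strongly expressed in myeloid cells, went the other way with 7.36 and 9.52 CPM at CT10 against 17.8 and 16.8 CPM at CT22, and Cebpd was the 1 member that passed as higher. With the summed level of monocyte and macrophage markers as a covariate, the difference for Cebpb was 0.25 log2 and that for Ddit4 was -0.77 log2. Here and below, the weight of this covariate comes from differences between libraries of the same time. The CT2 pair differed most, with sums of 1665 and 782 CPM.

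**Figure D2:**
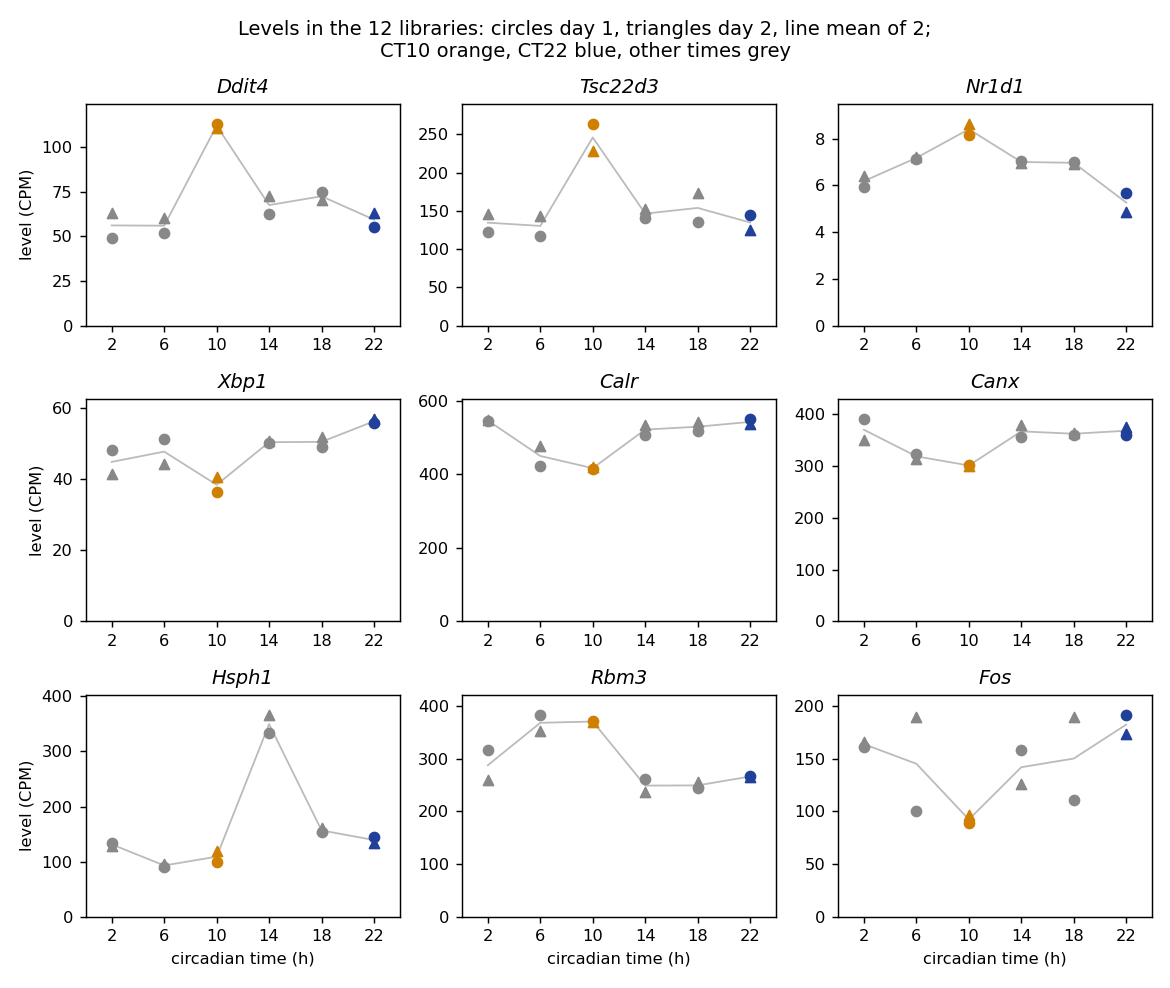
Levels in CPM (linear y axis from 0) of 9 genes in all 12 libraries against circadian time (h); circles are day 1, triangles day 2, the line joins the means of 2, CT10 is orange and CT22 blue. Ddit4 and Tsc22d3 are high at CT10 only, Nr1d1 declines from CT10 to CT22, Xbp1 and Calr are lowest at CT10, and Hsph1 peaks at CT14.

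Genes of the FOXO and quiescence programme, which keeps resting T cells small and inactive, split as well. Of 19 members, 3 stood lower (Pik3ip1, Sesn1 and Foxo3) and 2 higher (Bcl6 and Klf6) at an unadjusted p under 0.05. Over all tested genes these shares were 5.5% and 7.52%. Sesn1, a stress-induced inhibitor of mTOR, stood at 97.3 and 92 CPM at CT10 against 79.8 and 76.5 CPM at CT22. Bcl6, a transcriptional repressor, stood at 23.7 and 24.6 CPM at CT10 against 30.4 and 33.7 CPM at CT22, so that both CT22 libraries were above every other library of the series, the highest of which was 28.3 CPM. Bbc3, which encodes the pro-death protein PUMA, stood at 23.9 and 24.2 CPM at CT10 against 18.2 and 18.9 CPM at CT22 and also passed as lower. Among the 16 genes of AKT and mTOR signalling, Ddit4 was the single one that passed. Pdk1, the kinase gene that restrains mitochondrial pyruvate use, is listed with glycolysis and differed by -0.21 ± 0.08.

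Within the core clock the repressor genes diverged. Nr1d1, which encodes REV-ERB alpha, was the 1 core gene that passed: it stood at 8.17 and 8.63 CPM at CT10 against 5.66 and 4.86 CPM at CT22, a log2 difference of -0.67 ± 0.13. CT10 was the highest and CT22 the lowest of the 6 times, and the groups did not overlap. Per2 stood at 13 and 12.8 CPM at CT10 against 16.2 and 15.3 CPM at CT22, higher at CT22 by 0.29 ± 0.10 log2, whereas Per3 stood at 7.04 and 7.62 CPM at CT10 against 4.2 and 5.88 CPM at CT22 and Per1 at 45 and 40.3 CPM at CT10 against 36.2 and 37.8 CPM at CT22, both lower at CT22. The activator genes differed little, Arntl by -0.16 ± 0.09 and Clock by 0.02 ± 0.07, and the repressor gene Cry1 by 0.01 ± 0.10, and the signs of Clock and Cry1 changed when single libraries were left out. Of 12 tested core genes, 1 stood higher and 3 lower at an unadjusted p under 0.05, against 7.52% and 5.5% of all genes. Values were apart in 1 and 6, against 23% and 26.8% of all genes.

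Clock output genes followed both patterns. Tef stood at 52.7 and 48.3 CPM at CT10 against 42.7 and 41.1 CPM at CT22 and Dbp at 21.8 and 22.1 CPM at CT10 against 18.6 and 17.5 CPM at CT22, log2 differences of -0.27 ± 0.08 and -0.29 ± 0.10. Both encode PAR bZIP factors that bind the D-box. Bhlhe40, which encodes the repressor DEC1, was higher at CT22 with 9.09 and 14.5 CPM at CT10 against 17.9 and 19.5 CPM at CT22, and so was Nampt, for the NAD salvage enzyme, with 57 and 61.3 CPM at CT10 against 68.4 and 76.4 CPM at CT22. Of 10 output genes, 2 stood higher and 2 lower at an unadjusted p under 0.05, against 7.52% and 5.5% of all genes. The values of Bhlhe40 and Nampt were -0.12 and -0.13 log2 with the monocyte and macrophage marker sum as a covariate, while that of Nr1d1 was -0.59.

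A pair of promoter stretches shows clock motifs beside these values. Tef, lower at CT22, carries the E-box CACGTG that CLOCK and BMAL1 bind, and Per3, also lower, carries the D-box TTATGTAA at 2 places, both in capitals. The windows are RefSeq sequences of GRCm38.p6, 250 bases before to 50 after a start site, of which parts upstream of the start are printed.
Tef, chr15:81802511-81802586, plus strand: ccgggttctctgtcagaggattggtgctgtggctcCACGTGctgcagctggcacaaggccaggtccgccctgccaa
Per3, chr4:151044781-151044905, minus strand: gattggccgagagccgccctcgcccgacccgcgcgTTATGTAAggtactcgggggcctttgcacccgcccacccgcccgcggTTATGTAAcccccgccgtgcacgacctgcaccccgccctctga
An E-box was found in 8.09% of the 27025 genes with a promoter window and a D-box (TTATGTAA or TTACGTAA) in 1.23%, searched on both strands of every window. Of the core clock genes, 11 had a window, with an E-box in 2 (Cry1 and Per1) and a D-box in 1. Of the output genes, 8 had one, with an E-box in 3. A match is a description of the letters, not a site in use, and these motifs do not overlap each other in the stretches shown.

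Genes of protein folding in the endoplasmic reticulum (ER) mostly stood higher at CT22. In the unfolded protein response, stress in the ER activates XBP1, ATF6 and ATF4, which raise chaperones such as BiP. Of 20 listed genes, 12 stood higher and 0 lower at an unadjusted p under 0.05 by edgeR's test (7.52% and 5.5% of all genes). In 14 the CT22 values lay above both CT10 values, against 23% of all genes. The median was 0.24 log2. Without CT2, 10 passed as higher, against 486 of 16275 genes tested in that fit. Xbp1, the transcription factor gene, stood at 36.4 and 40.6 CPM at CT10 against 55.9 and 56.9 CPM at CT22, a log2 difference of 0.55 ± 0.09. Both CT22 libraries were above the 10 others, the highest of which was 52 CPM. Sdf2l1, an ER chaperone cofactor gene, stood at 15.5 and 17.2 CPM at CT10 against 25.5 and 25.3 CPM at CT22 and differed by 0.64 ± 0.12. Serp1, for a protein that stabilises membrane proteins in the ER and not a member of the list, stood at 128 and 142 CPM at CT10 against 176 and 186 CPM at CT22 and differed by 0.42 ± 0.07.

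The lectin chaperone genes and the BiP family stood higher together. Calr, for calreticulin, stood at 413 and 421 CPM at CT10 against 549.7 and 536 CPM at CT22, and Canx, for calnexin, at 302 and 300.3 CPM at CT10 against 361 and 376 CPM at CT22. Hspa5, which encodes BiP, stood at 369 and 398 CPM at CT10 against 515 and 487 CPM at CT22, and Hsp90b1, for the chaperone GRP94, at 342 and 377 CPM at CT10 against 486 and 463 CPM at CT22. The log2 differences were 0.38 ± 0.07, 0.29 ± 0.07, 0.39 ± 0.11 and 0.40 ± 0.11. For CT18 minus CT6, another pair 12 h apart, they were 0.24, 0.19, 0.24 and 0.31. Pdia6, a disulfide isomerase gene, stood at 91 and 92.8 CPM at CT10 against 118 and 117 CPM at CT22, and Creld2 at 20.9 and 21.9 CPM at CT10 against 25.1 and 26.1 CPM at CT22. In these 6 genes the CT10 and CT22 values did not overlap. The members with the smallest differences were Dnajc3, at 208 and 201 CPM at CT10 against 207 and 203 CPM at CT22, Herpud1 and Ddit3. By the means of the times, CT14 was highest for Hsp90b1 and CT2 for Calr, Canx, Hspa5, Pdia6 and Creld2. The highest single values of Hspa5 (606 CPM) and Hsp90b1 (598 CPM) were both in CT2 of day 1. That library belongs to the pair left out for the genes that passed. For Pdia6 only that library, at 151 CPM, exceeded the CT22 libraries. The highest single library for Calr was CT22 of day 1.

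Genes of this set that share a motif are shown here, because 7 of the 18 ER genes with a RefSeq promoter window carry the ER stress element, a CCAAT and a CCACG 9 bases apart, which is known to bind NF-Y and ATF6. It was found in 37 of the 27025 genes with a window (0.137%). Capitals mark its ends, on the strand of the gene or, in Calr, Creld2 and the second copy in Hsp90b1, on the opposite strand, where they read CGTGG and ATTGG.
Calr, chr8:84847040-84847128, minus strand: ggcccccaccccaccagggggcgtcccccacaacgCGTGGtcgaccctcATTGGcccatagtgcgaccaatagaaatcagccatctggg
Canx, chr11:50325765-50325853, minus strand: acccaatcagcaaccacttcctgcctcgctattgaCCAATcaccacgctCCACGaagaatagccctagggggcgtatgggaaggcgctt
Hspa5, chr2:34771990-34772078, plus strand: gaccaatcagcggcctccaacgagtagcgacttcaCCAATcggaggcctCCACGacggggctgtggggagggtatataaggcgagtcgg
Hsp90b1, chr10:86705498-86705691, minus strand: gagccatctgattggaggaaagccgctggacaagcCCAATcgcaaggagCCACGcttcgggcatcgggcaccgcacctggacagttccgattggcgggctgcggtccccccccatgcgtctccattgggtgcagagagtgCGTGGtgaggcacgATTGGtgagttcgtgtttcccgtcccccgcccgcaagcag
Pdia6, chr12:17266456-17266544, plus strand: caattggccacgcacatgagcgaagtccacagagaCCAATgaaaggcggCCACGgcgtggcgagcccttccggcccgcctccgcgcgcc
Creld2, chr15:88819485-88819573, plus strand: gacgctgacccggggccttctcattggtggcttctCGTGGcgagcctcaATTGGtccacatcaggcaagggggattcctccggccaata
Dnajc3, chr14:118937792-118937880, plus strand: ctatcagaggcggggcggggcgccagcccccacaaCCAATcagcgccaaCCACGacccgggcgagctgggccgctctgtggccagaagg
Of these 7 genes, 6 had CT22 values above both CT10 values, and the median difference over the 7 was 0.35 log2. Among the 11 ER genes without the letters, 6 had values apart and the median was 0.10. Dnajc3 carries the element and stood at nearly the same level at both times, and Xbp1 and Sdf2l1, with the largest differences of the list, do not carry it in this window. This motif was added to the search after the values were seen.

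The values of these ER genes diverged once a marker level of other cells was in the fit. With the monocyte and macrophage marker sum as a covariate, Calr was at 0.32 and Xbp1 at 0.38 log2, but Hspa5 was at 0.06, Hsp90b1 at 0.11 and Pdia6 at 0.02. The sum stood 2.17-fold higher at CT22. In the CT2 pair, whose sums differed most, Hspa5 stood at 606 and 467 CPM, Hsp90b1 at 598 and 461 CPM and Pdia6 at 151 and 110 CPM. Calr stood there at 545 and 548 CPM and Xbp1 at 48.4 and 41.5 CPM. The part of the sum and of the CT2 pair in these results was not tested beyond this.

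Heat shock genes, cytosolic chaperones and their partners under control of HSF1, also had more members higher than lower. Of 22 members, 9 stood higher and 0 lower at an unadjusted p under 0.05 by edgeR's test (7.52% and 5.5% of all genes). In 19 the CT22 values lay above both CT10 values (23% of all genes), and the median was 0.23 log2. Without CT2, 10 passed as higher, against 486 of 16275 genes tested in that fit. Hsph1, which encodes HSP110, stood at 99.1 and 119 CPM at CT10 against 145 and 134 CPM at CT22, a log2 difference of 0.35 ± 0.09. Ptges3, for the HSP90 co-chaperone p23, stood at 67.8 and 75.6 CPM at CT10 against 91.4 and 90.8 CPM at CT22. Hsp90ab1, the constitutive HSP90 gene, differed by 0.06 ± 0.09. The inducible Hsp70 gene Hspa1b stood at 0.46 and 2.78 CPM at CT10 against 5.77 and 6.77 CPM at CT22, and its near-identical copy Hspa1a at 0.248 and 1.41 CPM at CT10 against 3.4 and 3.22 CPM at CT22; since reads may be shared, neither value is certain. For Hspa1b the CT10 library of day 1 was far below that of day 2, so its difference was 3.46 and 1.26 log2 on the 2 days. For CT18 minus CT6, another pair 12 h apart, Hsph1 differed by 0.75 log2, Ptges3 by 0.35, Hsp90ab1 by 0.19 and Hspa1b by 3.21. The heat shock element GAANNTTC was in the windows of 10 of 17 members, against 9.04% of all genes with a window. Of these 10, 9 had CT22 values above both CT10 values, as did 6 of the 7 without it. At an unadjusted p under 0.05 by edgeR's test, 6 of the 10 and 2 of the 7 stood higher. The medians were 0.32 and 0.13 log2. The element is shown for Hspa1b, upstream of the start.
Hspa1b, chr17:34959300-34959377, minus strand: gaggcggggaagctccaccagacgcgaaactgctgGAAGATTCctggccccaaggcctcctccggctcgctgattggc

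Cold-inducible RNA-binding genes showed the opposite. Rbm3 and Cirbp encode proteins that mild cooling induces and that bind mRNA. Rbm3 stood at 372 and 369 CPM at CT10 against 267 and 266 CPM at CT22, a log2 difference of -0.48 ± 0.09 that was nearly the same on both days. Cirbp stood at 127 and 98.9 CPM at CT10 against 70.9 and 69.7 CPM at CT22, a log2 difference of -0.68 ± 0.17, and both genes passed as lower. The covariate left Rbm3 at -0.62 and took Cirbp to -0.11 log2. In the other pairs 12 h apart, Cirbp differed by -0.61 log2 for CT18 minus CT6 and by -0.75 for CT14 minus CT2.

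Immediate early genes, which respond to signals within minutes and also to cell handling, had no member that passed. Of 22 members, 7 stood higher and 1 lower at an unadjusted p under 0.05, against 7.52% and 5.5% of all genes, and the median was 0.24 log2. Fos stood at 88.6 and 96.1 CPM at CT10 against 191 and 173 CPM at CT22 and Jun at 82.4 and 92.4 CPM at CT10 against 145 and 132 CPM at CT22, both AP-1 subunits, with log2 differences of 0.98 ± 0.28 and 0.67 ± 0.20. Fosb stood at 25.9 and 23.8 CPM at CT10 against 53.8 and 44.1 CPM at CT22 and the phosphatase gene Dusp1 at 47 and 55.1 CPM at CT10 against 91.1 and 78.9 CPM at CT22. Zfp36, whose product degrades cytokine mRNAs, stood at 258 and 275 CPM at CT10 against 339 and 314 CPM at CT22. In Fos, Jun, Fosb, Dusp1 and Zfp36 both CT22 values lay above both CT10 values. For Fos, however, the lowest and highest of the 8 libraries of other times were 100.4 and 189.8 CPM, nearly the same span. The covariate left Fos at 0.79 and Jun at 0.64 log2.

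Several other genes of small p were also higher at CT22, outside the stress lists. Hk2 encodes a hexokinase that traps glucose, and it stood at 9.2 and 11.5 CPM at CT10 against 16.9 and 18.6 CPM at CT22, a log2 difference of 0.78 ± 0.13. Slc16a3, a lactate exporter gene, stood at 2.12 and 2.74 CPM at CT10 against 4.64 and 5.43 CPM at CT22. These were the 2 glycolysis genes of 19 that passed, against 486 of 16275 genes as higher, and the median of that list was 0.04 log2. The list held 2 higher and 1 lower gene (Pdk1) at an unadjusted p under 0.05 by edgeR's test, against 7.52% and 5.5% of all genes. Adam15, for a membrane protease, stood at 4.03 and 4.64 CPM at CT10 against 9.68 and 10.8 CPM at CT22, with 1.24 ± 0.22 log2. Cmpk1, for a pyrimidine nucleotide kinase, stood at 66.4 and 69.4 CPM at CT10 against 83.3 and 84.7 CPM at CT22, and its 2 CT22 libraries were the highest of the 12. Cln8, for an ER cargo receptor, stood at 12.3 and 12.6 CPM at CT10 against 17.4 and 18.8 CPM at CT22, and the linker histone gene Hist1h1c at 10.8 and 12.7 CPM at CT10 against 19.2 and 18.9 CPM at CT22. E2f2, a cell cycle transcription factor gene, stood at 24 and 24.8 CPM at CT10 against 31.3 and 30.8 CPM at CT22 and passed, while the median of 25 cell cycle genes was 0.04 log2. Slc16a3 differed by 1.05 ± 0.28 log2 without the covariate and by 0.10 with it, and Hk2 was at 0.50 with it.

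Several further genes of small p stood lower at CT22. Ano10, a membrane scramblase family gene, stood at 32.8 and 33.4 CPM at CT10 against 25.3 and 26 CPM at CT22, with -0.37 ± 0.07 log2. Ift140, for a ciliary transport protein, stood at 54.3 and 54.6 CPM at CT10 against 45.3 and 45.2 CPM at CT22, and Cyth3, for an ARF exchange factor, at 48.6 and 48.3 CPM at CT10 against 39.4 and 38.9 CPM at CT22. In both the 2 libraries of a time were within 1 CPM of each other. Syne1, for a nuclear envelope protein, stood at 202 and 181 CPM at CT10 against 138 and 141 CPM at CT22, and Fry at 46.7 and 42.6 CPM at CT10 against 33.3 and 31.5 CPM at CT22. Slc2a9, a urate transporter gene, stood at 26.1 and 23.1 CPM at CT10 against 17.5 and 17.4 CPM at CT22, and the transcription factor gene Nfia at 7.54 and 8.07 CPM at CT10 against 4.97 and 4.12 CPM at CT22. All 7 passed as lower.

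Genes of the T cell itself differed by small amounts. Of 16 genes of the receptor complex and CD8, 10 had CT22 values below both CT10 values, against 26.8% of all genes. Only Cd6 was lower at an unadjusted p under 0.05, against 5.5% of all genes, and the median was -0.11 log2. Cd6, for a T cell adhesion receptor, stood at 298 and 290.2 CPM at CT10 against 266 and 257 CPM at CT22. Of 20 receptor signalling genes, 14 had CT22 values below both CT10 values and 4 had an unadjusted p under 0.05, among them the kinase genes Txk, at 163 and 156 CPM at CT10 against 137 and 144 CPM at CT22, and Prkcq, at 474 and 448 CPM at CT10 against 421 and 411 CPM at CT22. Of 25 cytosolic ribosomal protein genes, 22 had CT22 values below both CT10 values and 0 had an unadjusted p under 0.05, by edgeR's test, with a median of -0.12 log2. Rpl8 stood at 2096 and 2055 CPM at CT10 against 1934 and 1778 CPM at CT22. None of the genes of these 3 lists passed. With the covariate Cd8a was at 0.05 log2 and Cd3e at 0.19, so both signs were then positive.

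Of 13 genes of mitochondrial DNA, 3 stood higher and 0 lower at an unadjusted p under 0.05 by edgeR's test, against 7.52% and 5.5% of all genes, with a median of 0.20 log2, and 1 passed. The complex I subunit gene mt-Nd2 stood at 1619 and 1563 CPM at CT10 against 1918 and 1894 CPM at CT22 and passed, mt-Nd1 stood at 2732 and 2666 CPM at CT10 against 3127 and 3094 CPM at CT22, and the complex IV gene mt-Co1 at 10215 and 10244 CPM at CT10 against 10910.0 and 10835 CPM at CT22. With the covariate mt-Co1 was at -0.10 log2, the opposite sign.

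Markers of monocytes, macrophages and neutrophils had the largest median differences of the gene lists. All 18 monocyte and macrophage markers stood higher at CT22 with an unadjusted p under 0.05 by edgeR's test, against 7.52% of all genes. Their median was 1.45 log2, and 17 passed, against 486 of 16275 genes passing as higher. Their sum was 770 and 1150.2 CPM at CT10 against 1883 and 2289 CPM at CT22, a 2.17-fold step. Lyz2, the lysozyme gene of myeloid cells, stood at 165 and 277 CPM at CT10 against 583 and 722 CPM at CT22, and Ccr2, the chemokine receptor gene of inflammatory monocytes, at 45.9 and 69.8 CPM at CT10 against 143 and 187 CPM at CT22. No marker of this list was at 0 in any library. The 10 neutrophil markers summed to 14.8 and 23.4 CPM at CT10 and 74.7 and 111 CPM at CT22, a 4.87-fold step. Of 9 tested genes, 6 stood higher at an unadjusted p under 0.05 by edgeR's test, against 7.52% of all genes. Cxcr2, a neutrophil chemokine receptor gene, stood at 1.38 and 1.73 CPM at CT10 against 7.82 and 10.9 CPM at CT22, and Csf3r, the G-CSF receptor gene, at 3.33 and 7.3 CPM at CT10 against 29.9 and 38.7 CPM at CT22. These 2 and the calprotectin genes S100a8 and S100a9 made up most of the sum. Ly6g, the surface marker gene of mature neutrophils, was near 0, with 0.0708 and 0.0807 CPM at CT10 against 0 and 0.0748 CPM at CT22. The granule gene Ltf, with 0.672 and 1.9 CPM at CT10 against 0.621 and 2.06 CPM at CT22, and Retnlg, with 1.1 and 0.686 against 0.913 and 1.35 CPM, overlapped between the times. The largest differences among genes with at least 5 CPM lay in this same group of genes, such as Vcan, a matrix proteoglycan gene of monocytes, at 2.97 and 2.02 CPM at CT10 against 22.7 and 57.9 CPM at CT22, and the cytokine gene Il1b at 1.88 and 4.48 CPM at CT10 against 23.3 and 29.4 CPM at CT22.

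**Figure D3:**
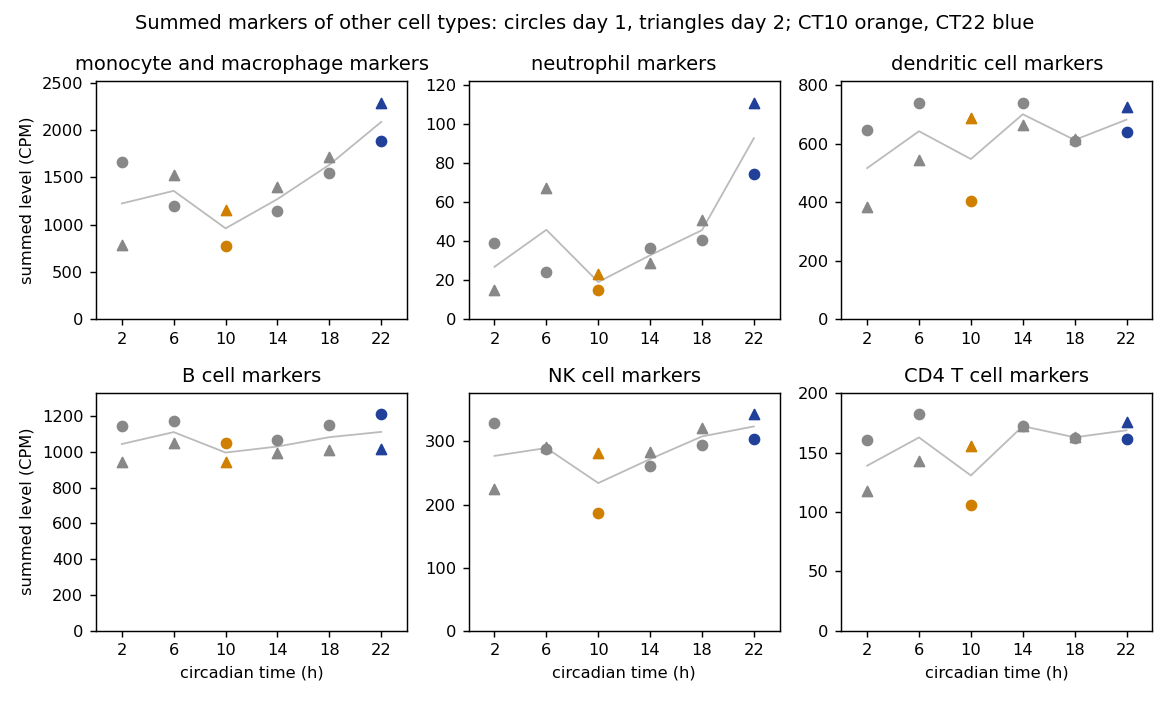
Summed levels (CPM, linear y axis from 0) of markers of 6 other cell types in each of the 12 libraries against circadian time (h); circles are day 1, triangles day 2, CT10 orange, CT22 blue, and the line joins the means. The CT22 libraries have the 2 highest sums of the series for monocytes and macrophages (1883 and 2289 CPM) and for neutrophils (74.7 and 111 CPM).

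Other cells differed less. The sum of B cell markers was 1049 and 942 CPM at CT10 and 1209 and 1012 CPM at CT22, overlapping. Even so, 3 of 14 genes stood higher at an unadjusted p under 0.05 by edgeR's test, against 7.52% of all genes. Ms4a1, which encodes CD20, stood at 25.4 and 21.1 CPM at CT10 against 44.5 and 34.3 CPM at CT22. Dendritic cell markers were 406 and 689.9 against 639 and 726 CPM, NK cell markers 187 and 281 against 305 and 343 CPM, and CD4 T cell markers 106 and 155 against 162 and 176 CPM. Stromal and endothelial markers summed to 180.1 and 173 CPM at CT10 and 157 and 164 CPM at CT22, but most of this sum was Pecam1, an endothelial gene that T cells also express, which was lower with 167 and 153 CPM at CT10 against 134 and 130.3 CPM at CT22. The 11 other markers summed to 13.2 and 20.1 CPM at CT10 and 23.5 and 33.5 CPM at CT22, and 7 of the 10 tested members of the list stood higher. Among them Cxcl13, a chemokine gene of follicular stroma, stood at 3.79 and 4.19 CPM at CT10 against 9.13 and 10.6 CPM at CT22.

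Zeb2 and Cx3cr1, which a CD8+ T cell and a myeloid cell both express, stood higher together with these markers, as did Plcg2 and C3. Zeb2, a transcription factor gene of effector T cells and monocytes, stood at 11.9 and 22 CPM at CT10 against 35.8 and 50.7 CPM at CT22, and Cx3cr1 at 9.2 and 13.6 CPM at CT10 against 19 and 18.8 CPM at CT22. Both passed, whereas Prf1, the perforin gene of killer lymphocytes, stood at 96 and 98.1 CPM at CT10 against 97 and 95.2 CPM at CT22 and overlapped. Of 20 cytotoxic effector genes, 4 stood higher and 0 lower at an unadjusted p under 0.05 by edgeR's test, against 7.52% and 5.5% of all genes. Plcg2, a phospholipase gene of B and myeloid cells, stood at 26.2 and 32.2 CPM at CT10 against 52.7 and 53.6 CPM at CT22, and the complement gene C3 at 16.7 and 25.8 CPM at CT10 against 54 and 70.1 CPM at CT22. With the covariate, Zeb2 was at 0.32, Cx3cr1 at 0.03, Plcg2 at 0.32 and C3 at 0.42 log2.

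Of 24 interferon response genes, 2 stood higher and 0 lower at an unadjusted p under 0.05 by edgeR's test, a share near the 7.52% of all genes. CT22 values lay above both CT10 values in 12 (23% of all genes) and below them in 2, with a median of 0.20 log2. Mx1, an antiviral GTPase gene, stood at 56 and 54.1 CPM at CT10 against 72.9 and 87.8 CPM at CT22 and was the 1 member that passed. Oas1a, for a sensor of double-stranded RNA, stood at 12.9 and 14.4 CPM at CT10 against 21.8 and 26.8 CPM at CT22. With the covariate Mx1 was at 0.04 and Oas1a at -0.09 log2. Over all genes the covariate left 0 passing in either direction by edgeR's test, with 500 higher and 798 lower at an unadjusted p under 0.05. The sum itself differs between the 2 times, and its weight in the fit comes from differences between libraries of the same time. The CT2 pair, with sums of 1665 and 782 CPM, differed most. The values with the covariate are therefore a description, and whether they reflect other cells or these libraries was not tested.

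**Figure D4:**
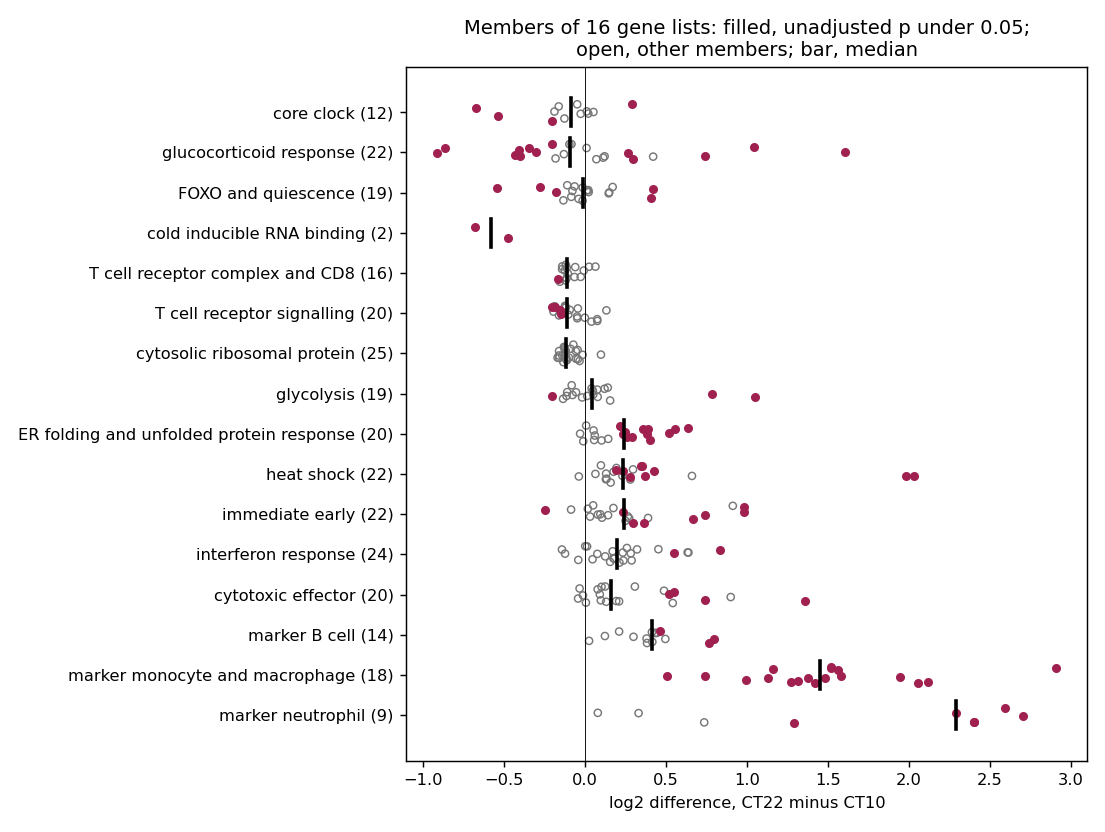
Log2 difference between CT22 and CT10 (x axis) for each tested member of 16 gene lists (y axis, number of members in brackets); filled points have an unadjusted p under 0.05, open points do not, and black bars are medians. The ER list has its median at 0.24, the monocyte and macrophage list at 1.45, and the neutrophil list at 2.29.

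Naive T cell and homing genes held few differences. Among the homing genes, Cxcr4, described above, passed as lower. Of 17 naive T cell genes, Art2b, for a surface ADP-ribosyltransferase, passed and stood at 70.6 and 62.5 CPM at CT10 against 81.3 and 81 CPM at CT22. Cpt1a, the gene for the gate of fatty acid oxidation, stood at 95.6 and 95.7 CPM at CT10 against 72.8 and 85.7 CPM at CT22. Of 14 genes of that pathway, 9 had CT22 values below both CT10 values, against 26.8% of all genes. At an unadjusted p under 0.05 by edgeR's test 1 was lower, a share near the 5.5% of all genes.

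The place of these times within the cycle was read from the means of the 6 times. Of the 1233 genes higher at an unadjusted p under 0.05, CT22 was the highest time for 923 and CT10 the lowest for 934, with both true of 686. Of the 901 lower genes, CT10 was the highest time for 735, CT22 the lowest for 375, and both held for 290. Over all 16396 genes CT22 was the highest time for 2349 and CT10 the lowest for 3264, with both true of 1040. In the other direction CT10 was the highest for 3573, CT22 the lowest for 2180, and both held for 795. These counts follow in part from the choice of genes by the same 2 times and are a description.

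The same 12 h contrast was tested against the 2 other pairs of opposite times, which share no library with it. No gene differed from CT18 minus CT6 at an adjusted p under 0.05 (0 of 16396, 0%) by edgeR's test, although 774 had an unadjusted p under 0.05 and DESeq2 called 4. Ddit4 had the smallest p: it was -0.91 ± 0.12 here and 0.37 log2 there. No gene differed from CT14 minus CT2 either (0%), although 1726 had an unadjusted p under 0.05 by edgeR and DESeq2 called 39. Without CT2 of day 2 alone edgeR called 1808 genes in this test. Hsph1 and Cxcr4 came nearest, with an adjusted p of 0.0576 each by edgeR. Hsph1 differed by 0.35 log2 between CT22 and CT10 and by 1.41 log2 between CT14 and CT2. For Cxcr4 these values were -0.43 and 0.63 log2, so the signs were opposite. Stip1, for an HSP70 and HSP90 organising protein, had 0.16 and 0.84 log2.

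The 2 days gave the same sign for most genes. Both days were positive for 4969 genes and both negative for 5648 of 16396. No gene differed between the days at an adjusted p under 0.05 (0 of 16396, 0%) by edgeR's test, although 262 had an unadjusted p under 0.05. limma on log2(TPM + 0.1) called 12 and on log2(TPM + 1) called 30. Slc15a2, a peptide transporter gene, was among the 4 genes of smallest p with at least 5 CPM: it stood at 58.7 and 47.2 CPM at CT10 against 20.9 and 41.9 CPM at CT22, so that the step was -1.49 and -0.17 log2.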

How the data were processed

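The authors deposited, for each of the 12 libraries, read counts per gene in the layout of STAR and an RSEM table with expected counts, which are estimates and can be fractional, and TPM, which RSEM scales to the same total in each library. Build GRCm38 and the programs STAR 2.5.1b, RSEM 1.2.28, Trimmomatic 0.35 and bcl2fastq 2.19 are named in the submitters' processing notes; for the annotation, the release is not given in the sources used here. Of the count columns, column 4 was used, in which 11.4% to 13.9% of fragments matched no gene against 77.6% to 80.9% in the other stranded column. The 4 entries that name no gene held 29.3% to 31.2% of all fragments and were left out. Of 50600 identifiers, 50376 matched GENCODE M21, whose coordinates are given.

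Counts were tested with edgeR 4.0.16 in R 4.3.3 (filterByExpr by time, 16396 genes, TMM, quasi-likelihood F test, 6 residual degrees of freedom, all 12 libraries in 6 groups). CPM are counts scaled by TMM. Log2 differences on a single day used a prior count of 2. DESeq2 1.42.0 and limma 3.58.1 on log2(TPM + 0.1), rounded expected counts for edgeR, other filters, left-out libraries, the day as a block and a covariate, the log2 of the summed monocyte and macrophage markers, were alternatives. The tests were tested on simulated data. Replicate numbers are days of collection in the labels, so libraries of 1 day could be paired. The main fit and the fit without CT2 did not use the day, which entered as a block in alternatives only. The day 2 minus day 1 deviations of 10153 genes correlated by 0.35 between CT22 and CT10. Over the 15 pairs of times they ran from -0.60 to 0.35, with a median of 0.08.

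Members, lists, naming rule and tests were chosen with earlier results of these data known. The rule took core clock and output genes, the 12 genes of smallest p in each direction with at least 5 CPM, the 2 of smallest p in every other list, 14 genes by name and 4 for each other test; some of these are not given. Other genes named in the report, such as Txnip, Hspa5, Fosb and Vcan, and the ER stress element were chosen after their values were seen.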

Additional observations from a re-analysis of the deposited data

How the results depend on the processing

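The counts of genes past an adjusted p under 0.05 depended on the setting more than the differences did. For genes higher and lower at CT22, edgeR's 0 and 0 became 183 and 14 with DESeq2, 862 and 151 with no filter on low counts, 195 and 17 on the 4 libraries alone, 906 and 213 on these 4 with the day as a replicate block, 1 and 1 with limma on log2(TPM + 0.1), and 486 and 121 without both CT2 libraries. RSEM expected counts gave 0 and 1 and limma on log2(TPM + 1) 0 and 2. Leaving out 1 of the 12 libraries gave from 0 to 456 higher and from 0 to 133 lower, with the high values without either CT2 library. Settings chosen after seeing the data, all without both CT2 libraries, gave 568 and 104 with the day as a block, 2 and 1 without CT10 of day 1, 916 and 311 without CT10 of day 2, 279 and 27 without CT22 of day 1, and 0 and 0 without CT22 of day 2 or with the marker covariate. The block in all 12 libraries left 0 and 0, as did RLE scaling, counts without strand, a mean of at least 5 CPM and leaving out both CT14 libraries. Against CT18 minus CT6, DESeq2 gave 4, no filter 490, expected counts 1, limma 4 and 4, no CT2 library 1, and leaving out single libraries 0 to 1. Against CT14 minus CT2 these were 39, 590, 1, 2 and 7, with 0 to 1808 for single libraries, the highest without CT2 of day 2. Between days, limma gave 12 and 30. The cause of these differences was not tested. Of the genes named with values, 12 took the other sign in some setting. With the marker covariate these were Bhlhe40 at -0.12 log2, Nampt at -0.13, Dnajc3 at -0.013, Cd8a at 0.046, Cd3e at 0.19, mt-Co1 at -0.10, Lyz2 at -0.15, Prf1 at 0.024, Oas1a at -0.089 and Vcan at -0.66. With single libraries left out, genes with differences near 0 changed sign: Clock ranged from -0.075 (without CT22 of day 2) to 0.11, Cry1 from -0.026 to 0.047, Dnajc3 from -0.018 to 0.030, Cd3e from -0.044 to 0.026 and Prf1 from -0.030 to 0.0082. With limma on log2(TPM + 0.1) and log2(TPM + 1), Cry1 was at -0.016 and -0.015, Prf1 at 0.020 and 0.019 and Cd3e at 0.0072 and 0.0072. Expected counts gave 0.0058 for Prf1, and the filter at 5 CPM gave 0.0024. Cd3e was at 0.0036 with RLE scaling, 0.0026 with DESeq2, 0.0074 with the filter at 5 CPM, 0.0035 on the 4 libraries, 0.0038 on these with the day as a replicate block, 0.00019 without both CT2 libraries and 0.00044 without both CT14 libraries.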
